A study of Homo sapiens with 18 samples.

Results

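The genes described here are 10 human sensors of double-stranded or foreign RNA and the proteins that work with them, chosen by name: the RIG-I-like receptors RIGI (also known as DDX58), IFIH1 and DHX58, their adaptor MAVS, the cofactors TRIM25, ZC3HAV1, DDX60 and DDX60L, and the double-stranded RNA enzymes EIF2AK2 and ADAR. All 10 were among the 16472 genes of the deposited table, and all 10 were among the 13280 genes tested, which had to reach an RPKM of 1 in 3 or more libraries. RPKM is the number of reads in a gene per kilobase of its length, scaled to the library's reads, so levels of different genes can be set side by side on this scale. RNA was sequenced in NIKS cells, a spontaneously immortalized human skin keratinocyte line kept on irradiated J2/3T3 mouse fibroblasts. There were 6 groups with 3 biological replicates each: cells with intact SP100 (WT) and SP100 knockout cells (KO), each left untreated (0 h) or given human interferon alpha 2a at 25 ng/mL for 12 or 48 h. The column names begin with Vec2 for every WT library and with KO5 for every KO library, which is 1 line per genotype. The knockout and other differences between these lines therefore cannot be told apart. Untreated cells were represented at 0 h alone, so the duration of treatment and the time in culture cannot be told apart either. Without interferon the targeted gene SP100 was at 30.1, 31.9 and 27.9 RPKM in the WT libraries and 16.0, 14.2 and 15.2 RPKM in the KO libraries. With interferon SP100 was at 151 to 172 RPKM in WT and 86.5 to 93.2 in KO at 12 h, and at 124 to 131 and 57.4 to 62.4 at 48 h. The KO libraries thus held reads of SP100 that rose with interferon, and the type of knockout allele is not given in the sources used here.

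RIG-I-like receptors are cytoplasmic helicases that bind viral RNA. RIGI and IFIH1 (MDA5) then use their caspase recruitment domains to assemble MAVS on mitochondria, which leads to the transcription of type I and type III interferons. Type I interferon acts back on the cell through its surface receptor, and most sensors of this pathway are themselves interferon-stimulated genes, also in keratinocytes, the main cell of the epidermis. EIF2AK2 (PKR) and ADAR act outside this chain: the former halts translation when it binds double-stranded RNA, and the latter edits adenosines in such RNA so that the cell's own transcripts are less readily sensed.

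The promoter sequences of the members are shown first because 9 of the 10 genes rose together with interferon. RefSeq windows from 250 bases before to 50 after the start site (GRCh38.p14) were at hand for 9 members, with 3 windows for ADAR. They were searched on both strands for 3 motifs: the core of an interferon-stimulated response element (ISRE), which is GAAA, any 2 bases and GAAA; GAAANGAAA, which is 1 base shorter; and TTCNNNGAA, which is palindromic. Matches of different motifs may overlap. Of 35116 windows of that length, 3.57% held the ISRE core, 3.12% GAAANGAAA and 7.66% TTCNNNGAA. GAAANGAAA was added after the windows had been seen. Capitals mark the match, each sequence is on the gene's strand, and a run that reaches the start site ends there or at the end of the match. All of these genes lie on the minus strand of their chromosomes.
RIGI, chr9:32526361-32526429: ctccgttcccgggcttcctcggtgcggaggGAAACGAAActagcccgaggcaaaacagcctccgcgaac
IFIH1, chr2:162318685-162318735: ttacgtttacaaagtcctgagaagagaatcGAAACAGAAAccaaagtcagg
TRIM25, chr17:56914044-56914082: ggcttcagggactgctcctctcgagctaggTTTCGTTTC
ZC3HAV1, chr7:139109786-139109854: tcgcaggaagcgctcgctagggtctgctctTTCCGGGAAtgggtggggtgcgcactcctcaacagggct
DDX60, chr4:168318766-168318835: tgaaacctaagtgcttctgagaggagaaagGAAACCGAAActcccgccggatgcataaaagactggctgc
DDX60L, chr4:168480503-168480572: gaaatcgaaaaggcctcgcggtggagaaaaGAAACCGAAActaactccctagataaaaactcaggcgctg
EIF2AK2, chr2:37156977-37157016: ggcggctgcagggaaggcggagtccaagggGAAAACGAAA
The matches shown begin 203 bases before the start site in RIGI, 21 before it in IFIH1, 3 before it in TRIM25 (read on the other strand), 104 before it in ZC3HAV1, 53 before it in DDX60, 50 before it in DDX60L and 6 before it in EIF2AK2. DDX60 had a further ISRE core match beginning 88 bases before its start site and DDX60L one beginning 80 bases before, so these neighbouring relatives held a pair each at like positions. In both, GAAANGAAA matches overlapped the match shown, and DDX60 also held TTCNNNGAA. IFIH1 held 2 more matches that overlap each other. The windows of MAVS and ADAR held none of these letters, and no window was at hand for DHX58. A match describes letters in a window and is not evidence of binding.

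**Figure D1:**
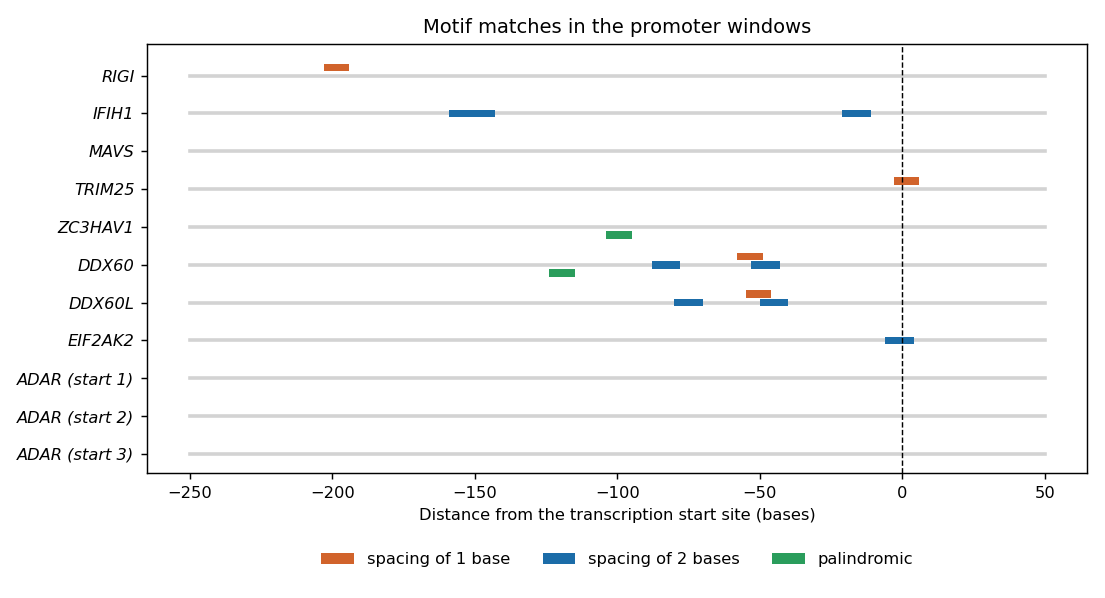
Positions of motif matches (coloured bars) in the RefSeq promoter windows of 9 members (grey lines), against the distance from the transcription start site in bases (dashed line at the start). DDX60 and DDX60L each hold a pair of matches with the spacing of 2 bases upstream of the start, while the MAVS window and the 3 ADAR windows hold no match.

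All 10 keratinocyte markers on a list of 10 were in the table, with a summed level of 18445 to 22099 RPKM per library. Of 10 fibroblast markers 3 (COL1A1, PDGFRB and FAP) were in the table, at 5.84 to 8.93 RPKM in sum, of 8 immune cell markers 1 (CD14), at 1.25 to 6.64 RPKM, and of 6 melanocyte markers 2 (PMEL and MITF), at 0.98 to 2.34 RPKM. CD14 was at 4.14 to 6.64 RPKM in untreated libraries and at 1.25 to 3.48 RPKM in treated ones, lower where the sensors were higher, and its part in the results was not tested. Relative depth, recovered from low values, ranged from 0.845 to 1.25 over the libraries, and total read numbers are unknown.

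Interferon was compared with no treatment in each genotype. In WT and in KO, at 12 and at 48 h, the same count was reached: 9 of the 10 members were higher, and MAVS was the member that did not pass. Over all genes tested, 15.1% of genes in WT were called higher after 12 h and 6.52% after 48 h, and 16.0% and 5.9% of genes in KO (limma, adjusted p under 0.05). The treated libraries of these 9 members all lay above the untreated ones, as did those of 18.5% and 15.8% of all genes in WT and 18.4% and 12.8% in KO. The 10 members had a median log2 change of 2.58 after 12 h and 2.34 after 48 h in WT, and of 2.77 and 2.38 in KO, against -0.09, -0.003, -0.10 and -0.01 over all genes. In bulk RNA, more cells with a transcript and more of it per cell cannot be told apart. Log2 changes are of RPKM + 1, which understates the change of low genes, and folds are ratios of mean RPKM.

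**Figure D2:**
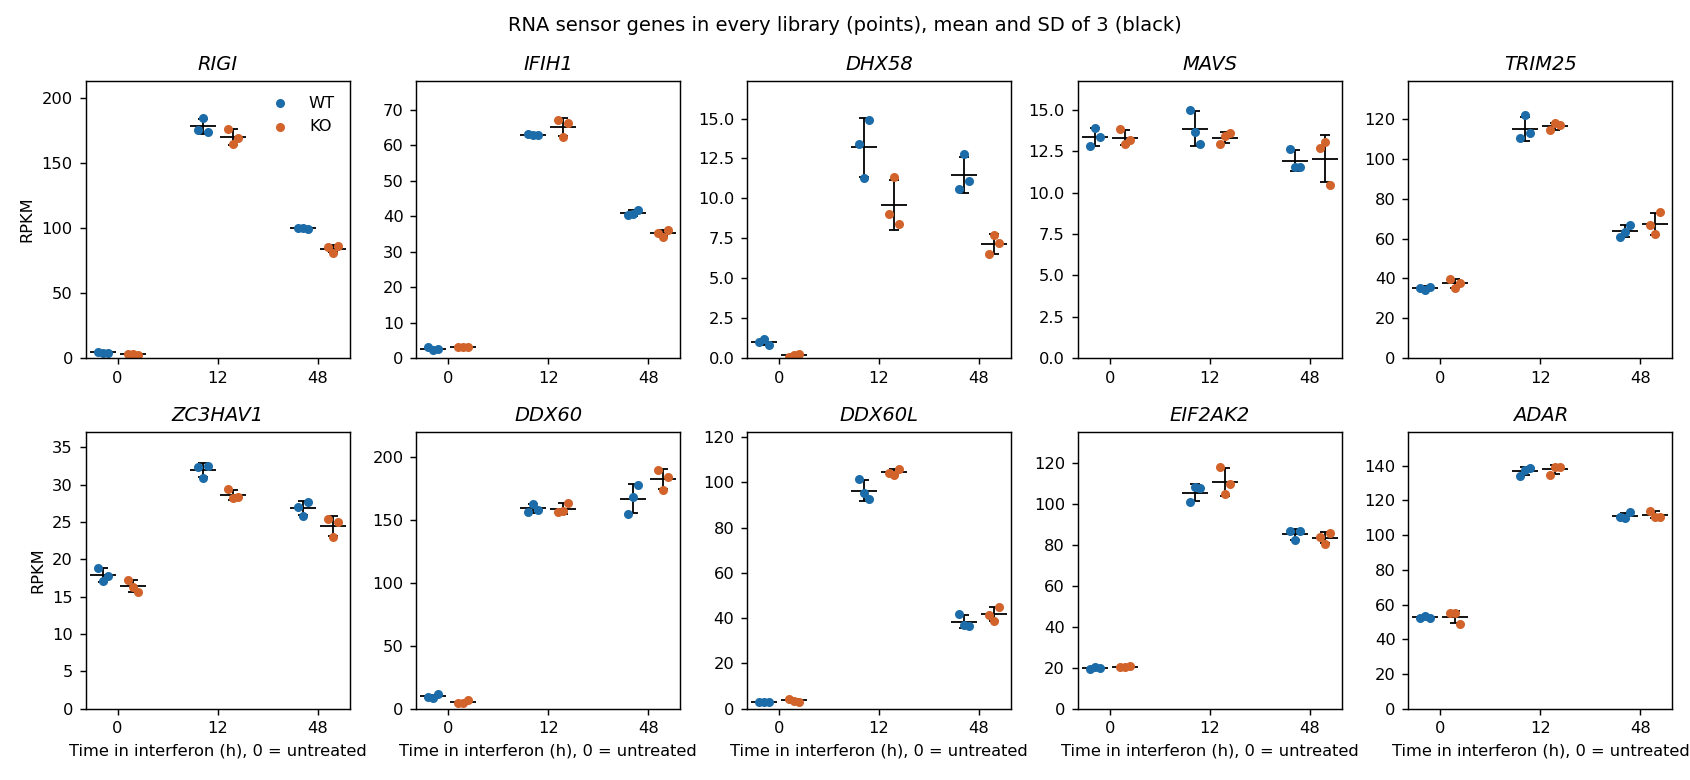
RPKM of each member in every library (points) against time in interferon, with WT in blue, KO in orange and the mean and SD of 3 replicates in black; each vertical axis starts at 0 and has its own scale. Every member except MAVS lies higher in all treated libraries than in all untreated ones, and the DDX60 points at 48 h lie near or above those at 12 h while the DDX60L points lie far below.

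Among the receptors, RIGI, which recognises short double-stranded RNA with a phosphorylated 5′ end, had the largest change on the log2 scale of RPKM + 1. In WT, RIGI (ENSG00000107201) was at 4.81, 3.98 and 4.29 RPKM untreated, 176, 185 and 174 at 12 h and 100.05, 100.5 and 99.2 at 48 h. In KO, RIGI was at 3.07, 3.23 and 2.75 RPKM untreated, 177, 165 and 169 at 12 h and 85.4, 81.4 and 86.1 at 48 h. Every treated library lay far above every untreated one, and the libraries at 12 h lay above those at 48 h in both genotypes. The log2 change at 12 h was 5.07 ± 0.06 (SE) in WT and 5.41 ± 0.06 in KO, 40.9-fold and 56.4-fold, and at 48 h it was 4.24 and 4.41 (limma, adjusted p from 4.24e-20 to 1.75e-18). RIGI ranked at 20 of all 13280 genes by its change at 12 h in WT, and moved from above 26.6% of the genes tested to above 96.0% of them.

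IFIH1 (MDA5), the receptor for long double-stranded RNA, started below RIGI in WT and from a similar level in KO. With interferon it stayed below RIGI in both genotypes. IFIH1 (ENSG00000115267) read 3.03, 2.27 and 2.52 RPKM in untreated WT, 63.0, 62.8 and 62.9 after 12 h and 40.2, 40.5 and 41.8 after 48 h. IFIH1 read 3.12, 3.05 and 3.24 RPKM in untreated KO, 67.0, 62.2 and 66.2 after 12 h and 35.3, 34.2 and 36.0 after 48 h. Untreated and treated libraries did not overlap, and the 3 WT libraries at 12 h were nearly equal. The log2 change at 12 h was 4.15 ± 0.06 in WT and 4.00 ± 0.06 in KO, 24.1-fold and 20.8-fold, and at 48 h it was 3.54 and 3.13 (limma, adjusted p from 5.15e-18 to 2.84e-16).

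DHX58 (LGP2), which lacks the caspase recruitment domains and modulates the other receptors, was the least abundant member in untreated cells. The WT libraries held 1.04, 1.19 and 0.83 RPKM of DHX58 (ENSG00000108771) without interferon, 13.4, 11.3 and 14.9 at 12 h and 10.6, 12.8 and 11.1 at 48 h. The KO libraries held 0.09, 0.18 and 0.25 RPKM of DHX58 without interferon, 9.01, 11.3 and 8.39 at 12 h and 6.53, 7.74 and 7.20 at 48 h. Treated and untreated libraries did not overlap, and the untreated KO level exceeded that of only 0.7% of the genes tested. The log2 change at 12 h was 2.81 ± 0.12 in WT and 3.17 ± 0.12 in KO (limma, adjusted p 1.33e-11 and 2.40e-12), and at 48 h it was 2.63 and 2.80 (4.47e-11 and 1.86e-11). The fold of mean RPKM was 12.9 at 12 h and 11.3 at 48 h in WT. In KO it was 55.2 and 41.3, the latter above the 28.0-fold of RIGI at that time, and both KO folds rest on a very low untreated level.

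MAVS, the adaptor on which RIGI and IFIH1 converge, stayed in a narrow range. In WT, MAVS (ENSG00000088888) was at 12.8, 13.9 and 13.4 RPKM untreated, 15.0, 13.7 and 12.9 at 12 h and 12.7, 11.6 and 11.6 at 48 h. In KO, MAVS was at 13.9, 13.0 and 13.2 RPKM untreated, 12.9, 13.4 and 13.6 at 12 h and 12.7, 13.1 and 10.5 at 48 h. Treated and untreated libraries overlapped except at 48 h in WT, where the 3 treated libraries lay below the 3 untreated ones. The log2 change was 0.05 (95% interval -0.11 to 0.20) at 12 h and -0.15 (-0.31 to 0.003) at 48 h for WT, and 0.001 (-0.15 to 0.16) and -0.14 (-0.29 to 0.02) in KO. None of these passed (limma, adjusted p 0.628, 0.195, 0.995 and 0.244).

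Of the cofactors, TRIM25, a ubiquitin ligase linked to RIGI activation and a partner of ZC3HAV1, rose less than the receptors. TRIM25 (ENSG00000121060) read 35.2, 34.2 and 35.9 RPKM in untreated WT, 110.3, 122 and 113 after 12 h and 60.8, 63.5 and 66.7 after 48 h. TRIM25 read 39.9, 35.1 and 37.5 RPKM in untreated KO, 114, 118 and 117 after 12 h and 66.7, 62.4 and 73.4 after 48 h. The 3 times did not overlap in either genotype. TRIM25 rose 3.28-fold at 12 h and 1.81-fold at 48 h for WT, and 3.10-fold and 1.80-fold in KO (log2 1.68, 0.84, 1.61 and 0.83, limma adjusted p from 8.93e-13 to 2.99e-08).

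ZC3HAV1 (ZAP), a zinc finger protein that binds CpG-rich RNA and recruits RNA decay factors, had the smallest change among the 9 genes that rose. The WT libraries held 18.9, 17.1 and 17.8 RPKM of ZC3HAV1 (ENSG00000105939) without interferon, 32.4, 30.9 and 32.6 at 12 h and 27.0, 25.8 and 27.7 at 48 h. The KO libraries held 17.2, 16.4 and 15.6 RPKM of ZC3HAV1 without interferon, 29.4, 28.2 and 28.3 at 12 h and 25.5, 23.0 and 25.0 at 48 h. Treated libraries were nonetheless all above untreated ones of their genotype. The fold was 1.78 at 12 h and 1.5 at 48 h for WT, and 1.75 and 1.49 in KO (log2 0.80, 0.56, 0.77 and 0.55, limma adjusted p from 4.84e-09 to 1.20e-06).

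DDX60, a helicase relative reported to assist RIGI signalling, was the member that was not called lower at 48 h than at 12 h in either genotype. In WT, DDX60 (ENSG00000137628) was at 9.68, 8.57 and 11.4 RPKM untreated, 156, 163 and 158 at 12 h and 154, 168 and 177 at 48 h. In KO, DDX60 was at 4.64, 4.43 and 6.64 RPKM untreated, 156, 157 and 164 at 12 h and 189.8, 174 and 184 at 48 h. Libraries at 12 and 48 h overlapped in WT, and in KO the 3 libraries at 48 h lay above the 3 at 12 h. The log2 change was 3.89 ± 0.11 at 12 h and 3.95 ± 0.11 at 48 h for WT, and 4.70 and 4.90 in KO, with folds of 16.1, 16.9, 30.3 and 34.8 (limma, adjusted p from 1.60e-15 to 3.23e-14).

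DDX60L, its relative, is the next protein-coding gene on chromosome 4 in RefSeq. DDX60L (ENSG00000181381) read 3.12, 3.18 and 2.95 RPKM in untreated WT, 101, 95.2 and 92.4 after 12 h and 41.7, 37.0 and 36.6 after 48 h. DDX60L read 4.29, 3.5 and 3.21 RPKM in untreated KO, 104, 103 and 106 after 12 h and 41.5, 38.9 and 44.9 after 48 h. The libraries at 12 h lay far above those at 48 h in each genotype, without overlap. The log2 change at 12 h was 4.57 ± 0.08 in WT and 4.51 ± 0.08 in KO, 31.2-fold and 28.5-fold, and at 48 h it was 3.27 and 3.20 (limma, adjusted p from 3.13e-17 to 5.30e-15). The transcripts of the 2 genes share 42 exact words of 50 bases, 0.618% of those of DDX60 and 0.34% of those of DDX60L. Words with a mismatch were not counted, and how reads were assigned between the 2 genes was not tested.

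The double-stranded RNA enzymes started from higher levels. EIF2AK2, the kinase that phosphorylates the translation initiation factor eIF2, rose 5.32-fold at 12 h in WT. The WT libraries held 19.4, 20.3 and 19.7 RPKM of EIF2AK2 (ENSG00000055332) without interferon, 101, 108 and 108 at 12 h and 86.7, 82.1 and 86.6 at 48 h. The KO libraries held 20.3, 20.5 and 20.8 RPKM of EIF2AK2 without interferon, 118, 105 and 109.7 at 12 h and 83.7, 80.5 and 85.9 at 48 h. The libraries of the 3 times did not overlap in WT or in KO. The log2 change was 2.35 ± 0.05 and 2.05 ± 0.05 at 12 and 48 h in WT, and 2.38 and 1.97 in KO, with folds of 5.32, 4.29, 5.40 and 4.07 (limma, adjusted p from 1.77e-16 to 3.01e-15).

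ADAR, the editing enzyme, was the most abundant member in untreated cells of both genotypes. In WT, ADAR (ENSG00000160710) was at 52.4, 53.5 and 52.3 RPKM untreated, 134, 138 and 138 at 12 h and 110.5, 109.7 and 113 at 48 h. In KO, ADAR was at 55.2, 54.9 and 49.0 RPKM untreated, 135, 139 and 139 at 12 h and 114, 110.3 and 111 at 48 h. Treated libraries exceeded untreated ones by more than the spread of any group. The fold was 2.59 at 12 h and 2.11 at 48 h for WT, and 2.6 and 2.1 in KO (log2 1.36, 1.06, 1.36 and 1.06, limma adjusted p from 6.79e-14 to 3.30e-12). A gene level does not separate the interferon-inducible long isoform from the constitutive short one.

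**Figure D3:**
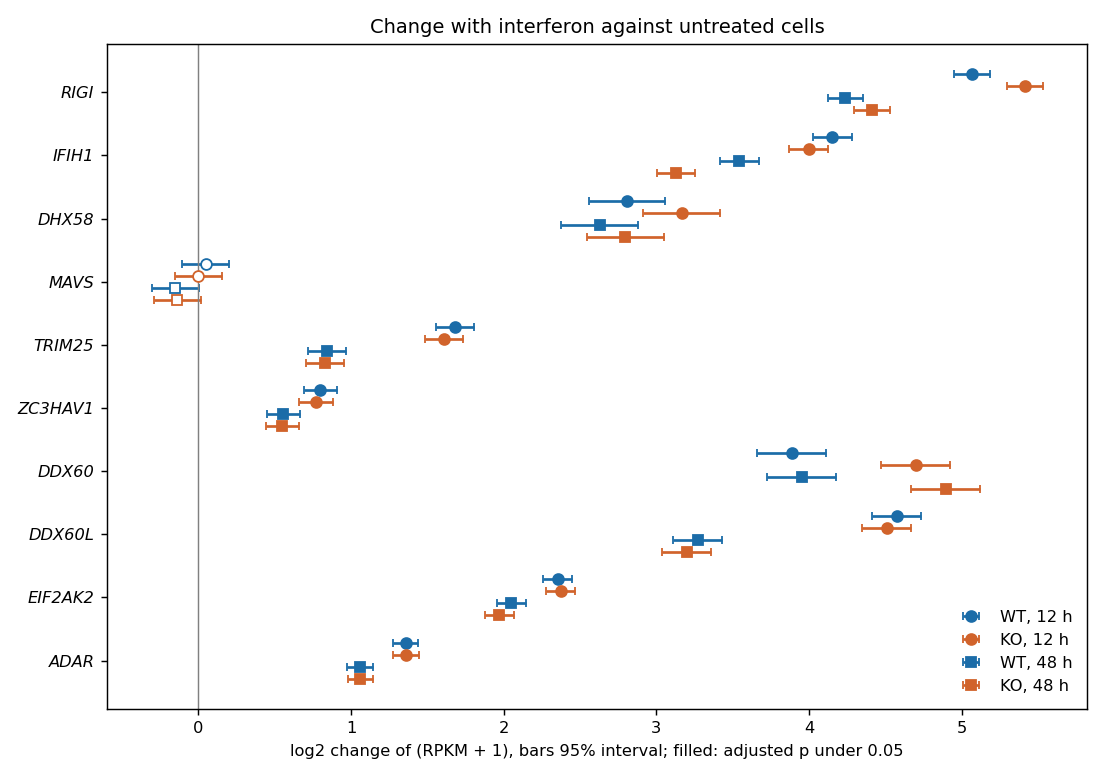
Log2 change of RPKM + 1 with interferon against untreated cells for each member, with circles for 12 h, squares for 48 h, WT in blue, KO in orange, bars for the 95% interval and filled symbols where the adjusted p is under 0.05. Changes run from near 0 for MAVS to 5.41 for RIGI at 12 h in KO, and the largest gaps between genotypes are those of DDX60.

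The sensors rose by different amounts, and their order by level changed. In untreated WT the order was ADAR, TRIM25, EIF2AK2, ZC3HAV1, MAVS, DDX60, RIGI, DDX60L, IFIH1 and DHX58, and of these neighbours DDX60L and IFIH1 alone overlapped between libraries. At 12 h in WT it was RIGI, DDX60, ADAR, TRIM25, EIF2AK2, DDX60L, IFIH1, ZC3HAV1, MAVS and DHX58, where EIF2AK2 overlapped with DDX60L and MAVS with DHX58. At 48 h in WT it was DDX60, ADAR, RIGI, EIF2AK2, TRIM25, IFIH1, DDX60L, ZC3HAV1, MAVS and DHX58, where IFIH1 overlapped with DDX60L and MAVS with DHX58. RIGI thus went from the seventh place to the first and then to the third. In untreated KO the order differed from WT in the low genes, where DDX60L, IFIH1 and RIGI overlapped. At 12 h KO had the WT order, with TRIM25, EIF2AK2 and DDX60L overlapping in turn, and at 48 h it differed in that DDX60L stood above IFIH1 without overlap and RIGI overlapped with EIF2AK2.

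From 12 to 48 h in interferon, 8 of 10 members were lower in WT and 8 of 10 in KO, against 11.3% and 14.0% of all genes called lower (limma). The sets differed by 1 gene on each side: MAVS passed in WT alone and DHX58 in KO alone. DDX60 passed in neither. DDX60L fell most, to 39.9% of its 12 h mean in both genotypes (log2 -1.30 and -1.31, SE 0.08, limma adjusted p 5.57e-09 and 3.68e-09). RIGI fell to 56.0% in WT and 49.6% in KO, IFIH1 to 65.0% and 54.0%, and TRIM25 to 55.4% and 58.0%. ADAR, EIF2AK2 and ZC3HAV1 kept more of their level, 81.3%, 80.7% and 84.0% in WT and 81.0%, 75.3% and 85.4% in KO. DHX58 was at 87.1% in WT (adjusted p 0.251) and fell to 74.7% in KO (limma, adjusted p 0.0202), a call lost with a pseudocount of 0.1 and without KO replicate 2 at 12 h or KO replicate 1 at 48 h. MAVS fell to 86.1% in WT (limma, adjusted p 0.0435), a call that 11 of 25 alternative fits lost, and was at 90.5% in KO (adjusted p 0.141). Of these 11 fits, 9 left out 1 library: WT replicate 3 or KO replicate 2 or 3 at 0 h, WT replicate 1 or 2 or KO replicate 2 or 3 at 12 h, or WT replicate 2 or 3 at 48 h. DDX60 was at 104.8% of its 12 h mean in WT and 114.9% in KO (log2 0.07 and 0.20, limma adjusted p 0.669 and 0.15). The KO value passed as higher at 48 h in the fit on the libraries of this comparison alone and without untreated KO replicate 3.

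The difference between the neighbours DDX60 and DDX60L was also taken as a ratio within each library, a comparison chosen after their values had been seen and so a description. DDX60L was at 0.317 ± 0.056 (SD, n = 3) of the DDX60 level in WT without interferon, 0.606 ± 0.036 at 12 h and 0.232 ± 0.033 at 48 h. For KO the ratio was 0.733 ± 0.226, 0.659 ± 0.010 and 0.229 ± 0.013. At 12 and 48 h the ratios of WT and KO lay close together, and every library at 48 h was below every library at 12 h.

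Whether the knockout differed from WT was compared at each time. In untreated cells 3 of 10 members were lower in KO (RIGI, DHX58 and DDX60) and the other 7 did not pass, against 2.07% of all genes called lower and 4.89% called in either direction (limma). At 12 h 0 of 10 passed (limma), against 3.62% of all genes. At an unadjusted p under 0.05 there were 2 of 10 (ZC3HAV1 and DHX58), near the 17.0% of all genes at that p. At 48 h 2 of 10 were lower (RIGI and DHX58), against 2.16% called lower and 4.19% in either direction.

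**Figure D4:**
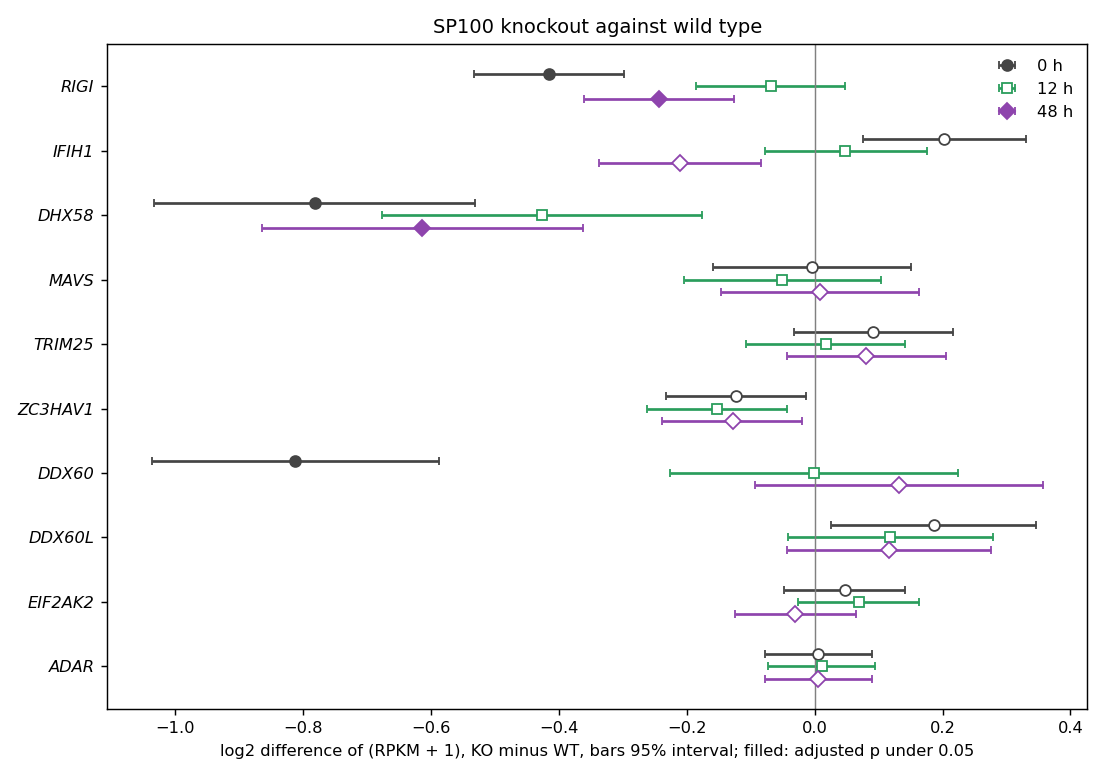
Log2 difference of RPKM + 1 between KO and WT for each member at 0 h (circles), 12 h (squares) and 48 h (diamonds), with bars for the 95% interval and filled symbols where the adjusted p is under 0.05. The 5 filled symbols, all below 0, belong to RIGI, DHX58 and DDX60, and ADAR lies at 0.01 at all 3 times.

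RIGI in untreated KO was at 69.2% of WT, with all 3 KO libraries below all 3 WT libraries (log2 -0.42 ± 0.06 SE, limma adjusted p 0.000198). A fit on the 6 libraries of this comparison alone gave an adjusted limma p of 0.0891. At 12 h RIGI was at 95.3% with overlapping libraries (log2 -0.07, adjusted limma p 0.586), and at 48 h it was at 84.4% without overlap (log2 -0.24, adjusted limma p 0.0179). That last call was lost without WT replicate 1 or 2 or KO replicate 2 at 48 h, with an adjusted limma p of up to 0.0787. DHX58 showed the largest relative difference: untreated KO was at 17.0% of WT (log2 -0.78 ± 0.12, limma adjusted p 0.000691). Both levels were near the floor, 0.09 to 0.25 RPKM in KO and 0.83 to 1.19 in WT. DHX58 met the filter only through its treated libraries. Its log2 difference at 0 h ran from -2.07 to -0.72 over the alternative fits. At 48 h DHX58 was at 62.3% (log2 -0.61, limma adjusted p 0.00566, and 0.0653 with a pseudocount of 0.1). At 12 h it was at 72.6%, where KO replicate 2 reached the lowest WT library (log2 -0.43, limma adjusted p 0.0584), and it passed without either that library or WT replicate 2. DDX60 was at 53.0% of WT in untreated KO without overlap (log2 -0.81 ± 0.11, limma adjusted p 0.000169), and at 99.9% and 109.5% at 12 and 48 h (adjusted p 0.998 and 0.612). For DDX60 at 0 h the fit on 6 libraries gave an adjusted limma p of 0.0568.

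The other members did not pass between genotypes. IFIH1 had KO libraries above WT at 0 h, by a small margin between the nearest libraries, and below WT at 48 h (log2 0.20 and -0.21, limma adjusted p 0.0647 and 0.0617). Without untreated WT replicate 1 both passed, as did the value at 48 h without untreated WT replicate 2. The IFIH1 value at 0 h also passed with a pseudocount of 0.1, and that at 48 h with median-of-ratios scaling. DDX60L was at 118.9%, 108.6% and 108.6% of WT at 0, 12 and 48 h (log2 0.19, 0.12 and 0.12, limma adjusted p 0.197, 0.469 and 0.496), while its neighbour DDX60 was lower in untreated KO. ZC3HAV1 was at 91.4%, 89.6% and 91.2% of WT (log2 -0.12, -0.15 and -0.13, limma adjusted p 0.211, 0.130 and 0.210). The 95% intervals of the KO minus WT difference ran at most from -0.08 to 0.10 for ADAR, from -0.12 to 0.16 for EIF2AK2, from -0.11 to 0.22 for TRIM25 and from -0.20 to 0.16 for MAVS over the 3 times.

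The interaction asks whether the change with interferon differed between genotypes. At 12 h 0 of 10 members passed (limma), against 0.0753% of all genes. At an unadjusted p under 0.05 there were 3 of 10 (RIGI, DHX58 and DDX60), against 5.75% of all genes at that p. At 48 h 1 of 10 passed, DDX60, against 0.0828% of all genes. The change of DDX60 at 48 h was 4.90 in KO and 3.95 in WT, a difference of 0.94 ± 0.15 (SE, limma adjusted p 0.0174). Its untreated level was lower in KO while its treated level was not called different. This call was lost in 8 of 25 alternative fits, over which the adjusted limma p ran from 0.000271 to 0.229. These were the fit on the 12 libraries of the interaction and the fits without WT replicate 1 at 0 h, WT replicate 1 or 2 at 48 h, KO replicate 1 or 2 at 0 h, or KO replicate 1 or 3 at 48 h. At 12 h the DDX60 difference was 0.81 ± 0.15 (limma adjusted p 0.0556), and it passed without WT replicate 2 or KO replicate 3 at 0 h. The RIGI difference was 0.35 at 12 h and 0.17 at 48 h (limma adjusted p 0.191 and 0.782), and that of IFIH1 was -0.15 and -0.41 (0.903 and 0.126), the latter passing without untreated WT replicate 1. For DHX58 the difference was 0.36 at 12 h and 0.17 at 48 h (limma adjusted p 0.866 and 0.912). With a pseudocount of 0.1 the DHX58 difference at 12 h was 1.605 and passed (limma adjusted p 0.04), where untreated KO was at 0.25 RPKM or less. Whether the decline from 12 to 48 h differed between genotypes gave 0 of 10 members (limma), with 2 at an unadjusted p under 0.05 (RIGI at -0.17 and IFIH1 at -0.26). Of all genes 0.0% passed there (limma), and 6.81% were at an unadjusted p under 0.05.

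The balance among the receptors was taken as ratios of RPKM within each library, with 21 exact permutation tests in all. For 3 against 3 libraries the smallest possible two-sided p is 0.1, so no comparison could pass. The smallest p obtained after Benjamini-Hochberg adjustment over the 21 tests was 0.131. In untreated WT there was 0.596 ± 0.031 (SD, n = 3) as much IFIH1 as RIGI, and in untreated KO 1.05 ± 0.12. The libraries of the genotypes did not overlap (exact permutation p 0.1). At 12 h the ratio was 0.353 ± 0.011 in WT and 0.383 ± 0.007 in KO, and at 48 h 0.409 ± 0.011 and 0.417 ± 0.004. The gap between the genotypes in this ratio was narrower at 12 and 48 h, and that narrowing was not tested.

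DHX58 stood at 0.236 ± 0.056 of RIGI in WT and 0.059 ± 0.031 in KO without interferon. At 12 h these ratios were 0.074 ± 0.012 and 0.056 ± 0.011, with overlap, and at 48 h 0.115 ± 0.011 and 0.085 ± 0.009, without overlap. Relative to IFIH1, DHX58 went in WT from 0.399 ± 0.109 without interferon to 0.210 ± 0.029 at 12 h and 0.281 ± 0.029 at 48 h. The KO ratio went the other way, from 0.055 ± 0.024 to 0.148 ± 0.030 and 0.204 ± 0.021 (exact permutation p 0.1 for each change in either genotype, the smallest possible). The ratios in untreated KO rest on DHX58 levels of 0.25 RPKM or less. For DHX58 to RIGI in KO, treated and untreated libraries overlapped at both times. Its mean log2 change was 0.08 at 12 h and 0.68 at 48 h (exact permutation p 0.3 at 48 h), so no clear change was seen. With 1 RPKM added to each gene, the mean log2 change in KO went from above 0 to below 0 for both DHX58 ratios.

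**Figure D5:**
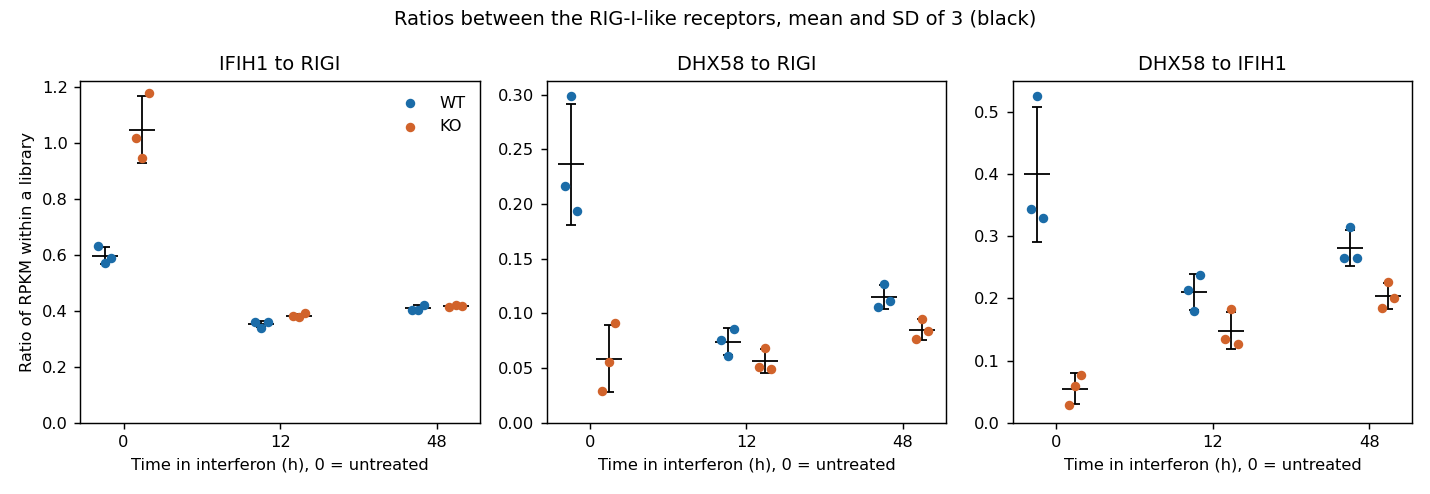
Ratios of RPKM between RIGI, IFIH1 and DHX58 within each library (points, WT in blue and KO in orange) against time in interferon, with the mean and SD of 3 replicates in black. The genotypes lie apart in untreated cells for all 3 ratios and lie closer at 12 and 48 h.

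The genes whose profile was most like that of each member were taken by the root mean square difference of centred log2 values over the 18 libraries, where 0 means the same profile. RIGI was nearest to XAF1 (0.24) and USP18 (0.29), IFIH1 to PARP9 (0.15) and SAMD9L (0.15), and DHX58 to HERC5 (0.23) and PSMB9 (0.28). TRIM25 was nearest to CTSC (0.11) and PNPT1 (0.13), ZC3HAV1 to CCND3 (0.07) and PCGF5 (0.08), and MAVS to CFL1 and SNX12 (0.06 each). DDX60 was nearest to CMPK2 (0.28) and TYMP (0.29), and DDX60L to LAMP3 (0.17) and HERC6 (0.22). EIF2AK2 was nearest to DTX3L (0.08) and STAT2 (0.11), and ADAR to CMTR1 (0.11) and NT5E (0.13). Between members, the closest pairs were TRIM25 with ADAR (0.22), ZC3HAV1 with ADAR (0.27) and IFIH1 with DDX60L (0.28). DDX60 and DDX60L were farther apart (0.71), and the farthest pair was RIGI with MAVS (2.31).

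The wider pathway was described with 84 listed genes, of which 77 were in the table and 75 were tested. With interferon, 33 of the 75 rose and 16 fell after 12 h in WT, and 20 rose and 3 fell after 48 h (limma). The KO counts were 34 and 17 after 12 h and 18 and 4 after 48 h. Of all genes tested, the share called lower with interferon in WT was 29.8% at 12 h and 6.3% at 48 h, with 32.8% and 7.42% in KO, beside the shares called higher given above. Among 13 regulators of the receptors in WT 5 rose and 5 fell at 12 h (median log2 change -0.07, against -0.09 over all genes). The largest of these changes was that of TRIM14, a MAVS-associated TRIM protein, at 14.5 ± 0.6 RPKM untreated and 57.2 ± 0.1 at 12 h. It was followed by ZNFX1, an RNA helicase that binds viral RNA at mitochondria, with a log2 change of 1.58 (limma, adjusted p 1.12e-13). Among 17 tested genes of MAVS signalling 6 passed as higher and 2 as lower at 12 h in WT (median log2 change 0.002). IRF7, the transcription factor that amplifies interferon production, changed by a log2 of 4.26 at 12 h (limma, adjusted p 2.35e-14), whereas the adaptor MAVS itself did not pass.

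Other RNA sensors were higher for 16 of 18 tested genes at 12 h in WT (limma, median log2 change 0.38), against 15.1% of all genes. IFIT1, which binds RNA lacking cap methylation, went from 4.32 ± 0.72 to 626.8 ± 19.9 RPKM, and OAS1, which makes the second messenger that activates RNase L, from 3.19 ± 0.73 to 331.7 ± 1.9. Their log2 changes were 6.89 and 6.33, and those of IFIT3 and OAS2 5.91 and 5.76 (limma, adjusted p from 8.34e-20 to 1.48e-14). The IFIT and OAS genes have close relatives, and the treatment of shared reads is not given in the sources used here. Of 6 partners of ZC3HAV1, 2 were higher, PARP12 by a log2 of 2.30 and N4BP1 by 1.00, and 2 were lower. Of 9 genes of the eIF2 kinase arm around EIF2AK2, 1 was higher (EIF2S1, a subunit of eIF2, by 0.19) and 4 were lower (EIF2AK1, EIF2AK4, PPP1R15A and ATF4, by log2 values of -0.20, -0.35, -0.51 and -0.12) at 12 h in WT, all named after their values had been seen. Over all genes 15.1% were higher and 29.8% lower there, and the ATF4 value is close to the shift of -0.091 that median-of-ratios scaling removes. At 48 h in WT, ATF4 was higher (log2 0.26, limma adjusted p 0.000301), PPP1R15A was lower (-0.47, adjusted p 0.0136), EIF2S2 was higher (0.15, adjusted p 0.0166), and EIF2AK1, EIF2AK4 and EIF2S1 did not pass. Of 11 other double-stranded RNA-binding proteins in the same 12 h comparison 2 were higher and 3 lower, near those shares. The largest falls on this list were those of PRKRA and STAU2 (log2 -0.97 and -0.80, limma adjusted p 2.31e-07 and 9.75e-06), also named after their values had been seen. Of 8 listed output genes of sensing 1 was tested, the chemokine CXCL10, at 0.223 ± 0.049 RPKM untreated, 140.7 ± 9.3 at 12 h and 2.28 ± 0.67 at 48 h in WT.

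Between genotypes 7 of the 75 pathway genes passed in untreated cells, of which 5 were lower in KO, 2 passed at 12 h (1 lower) and 5 at 48 h (4 lower), against the 4.89%, 3.62% and 4.19% of all genes called at these times. ITCH, a ubiquitin ligase that targets MAVS for degradation, was lower at all 3 times, with 36.2 ± 1.0 RPKM in WT and 22.5 ± 2.2 in KO without interferon (log2 -0.67, -0.66 and -0.69, limma adjusted p 0.000198, 0.000268 and 0.000158). IRF7 was higher in KO with interferon, 52.2 ± 3.0 against 28.4 ± 1.6 RPKM at 12 h (log2 0.86 at 12 h and 0.63 at 48 h, limma adjusted p 0.000263 and 0.00352). IFIT1, IFIT2 and IFIT3 were lower in untreated KO, as RIGI, DHX58 and DDX60 were, by log2 values of -1.44, -1.03 and -0.85, and OAS2 was higher by 0.63 (limma, adjusted p from 1.43e-08 to 8.53e-06). TLR3, the endosomal sensor of double-stranded RNA, was lower at 48 h (log2 -0.44, limma adjusted p 0.00323), as was TRIM38, a ubiquitin ligase that regulates the receptors (log2 -0.26, adjusted p 0.0292).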

How the data were processed

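The submitters' processing notes list cutadapt, STAR 2.6.1, RSEM 1.3.0, limma 3.50.3 and the build hg19, with no role or order, and per the labels' protocols the mRNA libraries were stranded. The authors deposited 1 table of RPKM values for 16472 genes, and the counting of shared or mouse reads is not given in the sources used here. Read totals are unknown, so no count test or counting interval was used. Relative depth came from 335 genes with low values, taking their smallest values as 1 read. Of the library values used in these genes, 75.8% lay within 3% of the fitted level of 1 read.

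Values were tested as log2(RPKM + 1), a pseudocount of 1, in a limma 3.58.1 cell-means model (R 4.3.3) of all 18 libraries with a variance trend, with Benjamini-Hochberg adjustment over the 13280 genes tested in each of 12 comparisons and a threshold of 0.05. Errors are SE for log2 changes and SD with n = 3 for levels and ratios. P-values measure the spread between these replicates, each group being 1 line. Symbols matched 14576 gene IDs. Because the reference tables are of another build than hg19, coordinates are given only for the RefSeq promoter windows (GRCh38.p14), and shared words come from GENCODE 29 transcripts. A planned comparison of protein sequences was not run. In data simulated for 13280 genes, with 100 changed by each size, the model recovered 75% of changes of 0.5 and 99% of changes of 1 on the log2 scale for interferon at 12 h in WT. The shares were 61% and 93% for KO against WT at 0 h, and 43% and 81% for the interaction at 12 h. In the data 5964 genes were called for interferon at 12 h in WT, far more than were changed in the simulation. For the interaction at 12 h, 10 genes were called in the data against 128 in the simulation, so the cutoff in the data was stricter. For KO against WT at 0 h these counts were 650 and 160. Because the adjustment depends on such numbers, the simulated shares need not hold in these data. Those for the interaction may be too high.

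Replicate numbers did not pair the libraries by the check given with the alternative fits. Members, lists and tests were chosen with earlier results of these data known. The pathway genes named are, per list, up to 4 called at 12 h in WT with an absolute log2 change of at least 1, and up to 8 called between genotypes or in an interaction, by size. The genes of the eIF2 kinase arm, PRKRA and STAU2 were named outside this rule. The genes most like a member are the 2 nearest non-members. The 25 alternatives changed the pseudocount to 0.1, dropped the filter or raised it to a mean RPKM of 5, scaled by median of ratios, used the libraries of a comparison alone, dropped the variance trend, added a replicate block, or left out 1 library at a time.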

Additional observations from a re-analysis of the deposited data

Results flagged for a closer look

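The change with interferon differed between WT and KO by a test of the interaction itself (limma, adjusted p under 0.05) for 1 member and 4 other listed RNA sensors. DDX60 changed by 0.944 more in KO at 48 h on the log2 scale. At 12 h the change was larger in KO by 1.446 for IFIT1, 0.889 for IFIT2 and 0.814 for IFIT3. At 48 h it was larger in KO by 1.129 for IFIT1, 0.898 for IFIT2 and 0.688 for IFIT3, while OAS2 differed by -0.563. The interactions at 12 and 48 h share their untreated libraries. In those untreated libraries DDX60, IFIT1, IFIT2 and IFIT3 were lower in KO and OAS2 was higher, each without overlap between the genotypes. Of all 13280 genes tested, 1956 lay higher and 1175 lower in untreated KO without overlap. The interaction contains this untreated difference, so its presence in genes chosen by the interaction is not separate support.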

How the results depend on the processing

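Of 120 member comparisons 58 were called, and 51 of these calls held under all 25 alternatives. The 7 others were lost under at least 1: RIGI and DDX60 between genotypes at 0 h, RIGI and DHX58 at 48 h, DHX58 from 12 to 48 h in KO, MAVS from 12 to 48 h in WT and the DDX60 interaction at 48 h. Of 62 values not called, 8 were called under at least 1 alternative and 24 changed sign, and 0 called values reversed. Median-of-ratios scaling moved the log2 change with 12 h of interferon by up to 0.091 for WT and 0.104 for KO.

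With the libraries of a comparison alone, calls over all genes fell to 945 for interferon at 48 h in KO, to 306, 213 and 250 for KO against WT at 0, 12 and 48 h, and to 6 and 3 for the interactions at 12 and 48 h. The genotype by time interaction gave 1 gene there and 1 without a variance trend. Members called fell to 1 for KO against WT at 0 h and to 0 for the interaction at 48 h, and pathway genes in that interaction to 1. A pseudocount of 0.1 gave 1 member for KO against WT at 48 h and 1, DHX58, in the interaction at 12 h. It also gave 3 pathway genes for KO against WT at 48 h. Median-of-ratios scaling gave 1 member for KO against WT at 12 h, and a mean RPKM of at least 5 gave 1 in the interaction at 12 h. With 1 added to each RPKM, the log2 change of the ratio in KO became -2.249 and -1.613 for DHX58 to RIGI at 12 and 48 h and -0.834 and -0.332 for DHX58 to IFIH1. The cause of these changes was not tested.

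Same-numbered libraries of different groups deviated together with a correlation over 0.1 in 2 of 45 pairs (mean -0.009), so the numbers gave no sign of pairing them. The mean for other pairs was 0.004. It is fixed by the centring of each group on its own mean and is not a separate comparison. With the replicate block, 1 member passed in the interaction at 12 h and 3 pathway genes for KO against WT at 48 h.

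The omission of each library in turn gave 1159 to 1776 genes for interferon at 48 h in KO (1159 without untreated KO replicate 1), 390 to 658 and 311 to 490 for KO against WT at 0 and 12 h (at 0 h 390, 418, 402 and 397 without WT replicate 2 or 3 or KO replicate 1 or 2, and at 12 h 311 and 315 without WT or KO replicate 1), 6 to 11 and 7 to 11 for the interactions at 12 and 48 h (6 without untreated KO replicate 1 or 2, KO replicate 3 at 12 h, WT replicate 2 or 3 at 48 h or KO replicate 1 at 48 h, and 7 without WT replicate 2 at 48 h), and 0 to 1 for the genotype by time interaction. Members called ran from 0 to 1 for KO against WT at 12 h, from 1 to 3 at 48 h, and from 0 to 1 in each interferon interaction, and pathway genes for KO against WT at 48 h from 3 to 5.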
